A study of Mus musculus with 1152 samples.

Results

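The Serinc genes of mouse microglia were described here through Serinc1, Serinc2, Serinc3 and Serinc5, 4 of the 48587 genes in the count table. They were picked by name, with the rise of Serinc3 in 5xFAD microglia already known, so every 5xFAD against WT value of Serinc3 below is a description without a test. The tests concern the other members, the brain regions, and cells of the same 5xFAD mouse that did or did not carry a disease-associated profile. The 5xFAD against WT difference of Serinc3 was tested only for whether it differed between regions.

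Single microglia were read by Smart-seq2, a full-length single-cell RNA-seq protocol, from 5xFAD and WT mice of the C57BL/6J strain. 5xFAD mice are a transgenic model of familial Alzheimer's disease, with transgenes under a neuronal Thy1 promoter, and form amyloid plaques. After filtering, the 5xFAD mice gave 154 hippocampal cells from 3 mice, 183 cortical cells from 4 mice and 193 cerebellar cells from 3 mice. The WT mice gave 182 hippocampal, 167 cortical and 162 cerebellar cells, each from 4 mice. Per the series' design the regions were taken from the same mice, so the 22 sums below are not 22 animals. The labels used here give no age or sex. Cells had been stained for CD11b, CD45, Ly6C, Ly6G and CD206 before sorting.

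The reads of all kept cells of 1 mouse and region were added up. The 22 sums held 35 to 72 cells and 5696201 to 26669220 reads each. Levels are given as CPM, the reads of a gene scaled to the TMM-adjusted library size, or as log2 CPM with a prior count of 2. In such sums, fewer cells with a transcript and less of it per cell cannot be told apart, and p-values measure the spread between mice. The 10 microglia markers together held 46117 to 68388 CPM in the 22 sums, while 5 markers of T and NK cells held at most 3.59 CPM. Markers of neutrophils reached 7252 CPM and those of monocytes 2139 CPM in the 5xFAD cerebellum, against at most 699 and 384 CPM in the WT cerebellum. Each plate held 2 groups: plate P209 held WT hippocampus and WT cortex, plate P210 held 5xFAD cortex and WT cerebellum, and plate P211 held 5xFAD hippocampus and 5xFAD cerebellum. Within each region genotype and plate therefore cannot be told apart.

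Serinc genes encode multi-pass membrane proteins of the endoplasmic reticulum, Golgi and cell surface that were named for incorporating serine into membrane lipids, the source of phosphatidylserine and sphingolipids. Later work on the human proteins described SERINC3 and SERINC5 as restriction factors that enter retroviral particles and lower their infectivity, and as lipid scramblases that move phospholipids between the leaflets of a membrane. Serinc3 is abundant in resting microglia and often appears in lists of homeostatic microglial genes.

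Serinc3 lies on the minus strand of chromosome 2 at 163623272 to 163645131 (GRCm38, GENCODE), Serinc1 on the minus strand of chromosome 10 at 57515774 to 57532530, Serinc2 on the minus strand of chromosome 4 at 130253495 to 130279205, and Serinc5 on the plus strand of chromosome 13 at 92611091 to 92711947. Of the 4 members, Serinc3 alone shares exon sequence with another annotated gene: 134 bases at its 5′ end overlap the antisense gene 0610039K10Rik (chromosome 2, 163644850 to 163645801, plus strand). Smart-seq2 does not mark strand, so reads in those bases cannot be assigned to one of the pair. The antisense exon also spans the 250 bases before the Serinc3 start (chr2:163645144-163645393, minus strand, RefSeq, GRCm38.p6), which are shown here because both genes are transcribed across or next to them. Capitals mark 1 GC box (GGGCGG) and a partial cyclic AMP response element (TGACGT).
Serinc3 upstream window: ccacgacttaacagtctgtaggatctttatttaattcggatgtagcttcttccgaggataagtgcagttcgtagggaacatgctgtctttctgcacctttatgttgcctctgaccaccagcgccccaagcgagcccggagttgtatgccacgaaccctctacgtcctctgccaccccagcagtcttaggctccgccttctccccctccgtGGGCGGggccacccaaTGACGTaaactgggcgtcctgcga
On either strand, the GC box was present in 32.7% and the partial response element in 6.47% of 32851 promoter windows of the same length. The letters GAGGAAGT, a PU.1 motif held by 2.44% of the windows, and the E-box CACGTG, held by 6.02%, were not found in it.

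One gene carried nearly all of the family's signal. Serinc3 was read in 1032 of 1041 kept cells (99.1%) and Serinc1 in 625 (60.0%), while Serinc5 was read in 30 cells (2.88%) and Serinc2 in 5 cells (0.480%). Averaged over the 22 sums, Serinc3 reached 937 CPM per kilobase of exon, Serinc1 89.6, Serinc5 0.645 and Serinc2 0.0430. By this length-scaled level Serinc3 ranked 42 of 16737 genes with a length and Serinc1 ranked 394. Of the length-scaled family signal, Serinc3 made up between 86.9% and 94.8% in each of the 22 sums.

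Blank wells set the background for these shares. Among 12 wells without a cell, 3 held a Serinc3 read (exact 95% binomial interval 5.49 to 57.2%), with at most 2 reads, whereas kept cells held a median of 814 Serinc3 reads. With 10 or more reads required, 97.0% of kept cells had Serinc3 and no blank well had it. No blank well held a read of the other 3 members, which with 12 wells allows a share of up to 26.5% (exact upper bound). Intervals cover counting error and not the spread between mice.

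**Figure D1:**
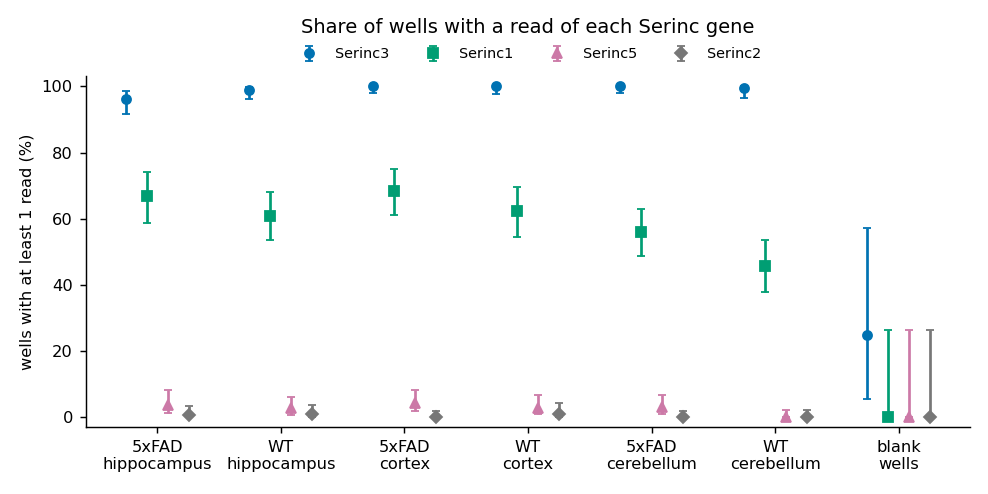
Share of wells with at least 1 read (vertical axis, percent) of each Serinc gene in the 6 groups and in 12 blank wells, with exact 95% binomial intervals. Serinc3 lay above 96% in every group, Serinc1 between 45.7 and 68.3%, and Serinc5 and Serinc2 below 5%.

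Serinc1, a widely expressed member, was read in 66.9% of 5xFAD against 61.0% of WT hippocampal cells, in 68.3% of 5xFAD against 62.3% of WT cortical cells, and in 56.0% of 5xFAD against 45.7% of WT cerebellar cells. The shares of single mice ran from 54.2 to 73.3% in 5xFAD and from 28.6 to 73.8% in WT, so they overlapped. Thinned to 50000 reads per cell, which left out 100 shallower cells, the cerebellar shares were 51.9% in 5xFAD and 48.2% in WT. With 10 or more reads required, the hippocampal order turned, with 51.9% in 5xFAD and 56.0% in WT.

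In the sums, Serinc3 was higher in 5xFAD than in WT microglia in each region. No WT sum reached the level of any 5xFAD sum of the same region. With equal weight per cell the hippocampal mice overlapped, as given below. In the hippocampus the 3 5xFAD mice had 4255, 3945 and 3676 CPM, and the 4 WT mice had 2674, 3489, 3023 and 2811 CPM. In the cortex the 4 5xFAD mice had 4607, 4726, 4597 and 4426 CPM, and the 4 WT mice had 2984, 2837, 2946 and 3062 CPM. In the cerebellum the 3 5xFAD mice had 4692, 4912 and 4454 CPM, and the 4 WT mice had 2951, 2832, 2848 and 2415 CPM. The lowest 5xFAD sum of the whole series, in the hippocampus, thus stood at 3676 CPM and the highest WT sum, also in the hippocampus, at 3489 CPM.

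The 5xFAD over WT ratio of Serinc3 was 1.32-fold in the hippocampus (log2 difference 0.40 ± 0.09, SE), 1.55-fold in the cortex (0.63 ± 0.08) and 1.70-fold in the cerebellum (0.77 ± 0.09). The groups did not overlap for 11% of all 17358 genes tested in the hippocampus, 5.71% in the cortex and 6.56% in the cerebellum, and 7.21%, 3.06% and 3.93% of genes lay higher in 5xFAD without overlap. Plate P210 held 5xFAD cortex beside WT cerebellum, and between these Serinc3 differed by 0.73 ± 0.08 log2 units, with the region changing together with the genotype. Without the 27 wells that carried markers of another cell type the cerebellar difference was 0.82.

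Among the 6 groups the log2 CPM of Serinc3 ordered as 12.20 ± 0.06 in 5xFAD cerebellum (SD, n = 3), 12.17 ± 0.04 in 5xFAD cortex (SD, n = 4), 11.95 ± 0.11 in 5xFAD hippocampus (SD, n = 3), 11.55 ± 0.17 in WT hippocampus, 11.54 ± 0.05 in WT cortex and 11.43 ± 0.13 in WT cerebellum (SD, n = 4 each). The 5xFAD cerebellum and cortex overlapped, and so did the 3 WT groups. The sums of the 5xFAD hippocampus lay below all other 5xFAD sums and above all WT sums. Hippocampus and cortex of 5xFAD did not overlap for 8.08% of all genes, and hippocampus and cerebellum for 13.1%.

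**Figure D2:**
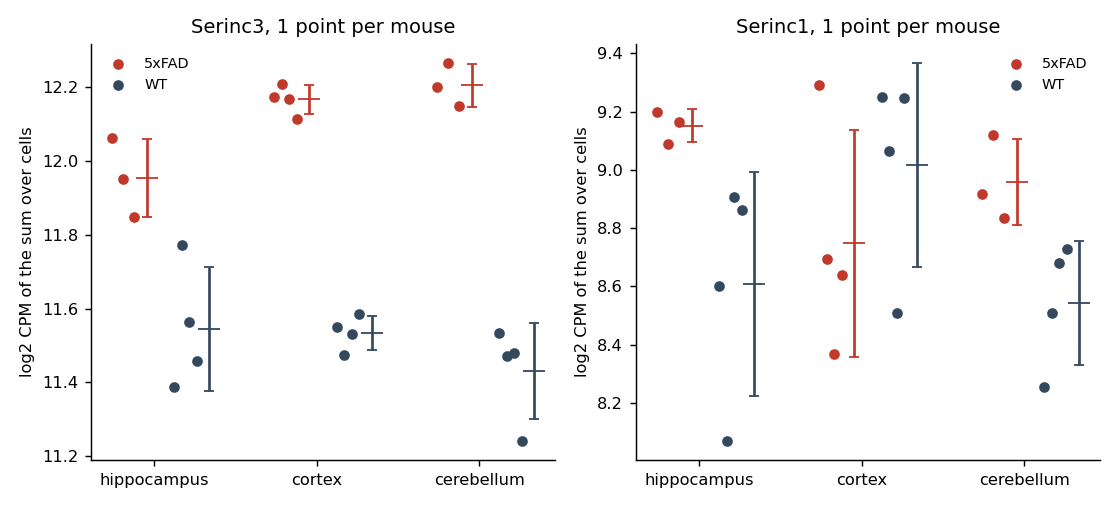
Level (log2 CPM, vertical axes) of Serinc3 and Serinc1 in each mouse by region, with 5xFAD left of WT, and mean ± SD beside the points. For Serinc3, 5xFAD mice lay between 11.85 and 12.26 and WT mice between 11.24 and 11.77; for Serinc1 the genotypes overlapped in the cortex.

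Regions of the same genotype were compared with edgeR's quasi-likelihood test, with Benjamini-Hochberg adjustment over all 17358 genes. None of the 3 members tested passed an adjusted p of 0.05 in any of the 6 regional comparisons. The share of all genes that passed was 0.0346% for hippocampus against cortex, 0.0576% for cerebellum against cortex and 0.219% for hippocampus against cerebellum in 5xFAD, and 0%, 0.277% and 0.374% for the same comparisons in WT. At an unadjusted p under 0.05 the members numbered 1, 0 and 1 in 5xFAD and 0, 2 and 1 in WT. Of all 17358 genes, 1444, 1422 and 1353 lay under that limit in 5xFAD and 1827, 2081 and 2380 in WT. DESeq2 called Serinc5 in WT cerebellum against cortex. In 5xFAD, Serinc3 differed by -0.21 ± 0.09 between hippocampus and cortex (adjusted p = 0.594), by -0.25 ± 0.09 between hippocampus and cerebellum, both on plate P211 (adjusted p = 0.626), and by 0.04 ± 0.09 between cerebellum and cortex (adjusted p = 1). In WT the matching differences were 0.02 ± 0.08 for hippocampus against cortex, both on plate P209, 0.12 ± 0.08 for hippocampus against cerebellum and -0.10 ± 0.08 for cerebellum against cortex (adjusted p = 1, 0.577 and 0.714 in edgeR).

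The 5xFAD against WT difference of Serinc3 was itself compared between regions. It was smaller in the hippocampus than in the cerebellum by 0.37 ± 0.12 log2 units and smaller than in the cortex by 0.23 ± 0.12, and larger in the cerebellum than in the cortex by 0.14 ± 0.12. None of the 3 interaction terms passed (edgeR, adjusted p = 0.291, 0.492 and 0.799), where 0.3%, 0.0461% and 0.0807% of all genes did.

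The hippocampal value depended on how cells were weighted. In a sum, deeper cells weigh more, whereas the median 5xFAD hippocampal cell held 2832 CPM of Serinc3 and the median WT hippocampal cell 2953 CPM. In the cortex the medians were 4531 CPM in 5xFAD and 2744 CPM in WT, and in the cerebellum 4557 CPM in 5xFAD and 2685 CPM in WT. Averaged over cells as log2(CPM + 1), the hippocampal difference reversed to -0.58. Under 500 CPM of Serinc3, a limit set after these values were seen, were 20 of 154 cells in the 5xFAD hippocampus against 6 of 182 in the WT hippocampus. Those 20 cells had a median of 46319 reads, and the other cells of the group 353947. Spike-in (ERCC) reads equalled 0.970% of gene reads in the 20 cells and 0.190% in the others. Without the cells under 500 CPM the median cell held 3064 CPM in the 5xFAD and 3008 CPM in the WT hippocampus. Over all kept cells, the medians of single mice ran from 2788 to 2945 CPM in 5xFAD and from 2543 to 3331 CPM in WT, with overlap. The means over cells of single mice ran from 3023 to 3267 CPM in 5xFAD and from 2640 to 3439 CPM in WT, also with overlap. With wells under 50000 reads, under 1000 genes or over 10% mitochondrial reads left out, the difference of the sums, in which deeper cells still weigh more, was 0.48.

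Serinc3 was next compared between cell states. Cells were graded by 6 genes that microglia switch on around amyloid, the protease inhibitor Cst7, lipoprotein lipase Lpl, the receptors Clec7a, Itgax and Axl, and the growth factor Igf1, each counted at 50 CPM or more. Cells with 3 or more were called panel-positive and cells with 0 panel-negative, and cells with 1 or 2 were left out. Panel-positive cells numbered 69 of 154 in the 5xFAD hippocampus, 46 of 183 in the cortex and 28 of 193 in the cerebellum, against 1 of 182, 1 of 167 and 9 of 162 in the WT regions.

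Within 5xFAD mice Serinc3 was lower in panel-positive than in panel-negative cells. It was lower in all 9 pairs of sums from the same mouse and region with 5 or more cells of each class. In the hippocampus the 3 mice had 2876, 2993 and 3164 CPM in panel-positive cells, against 5738, 4546 and 4642 CPM in panel-negative cells. With equal weight per cell, their means over cells were 2337, 2462 and 2905 CPM against 4223, 3500 and 3126 CPM. The gap was then small in mouse 3, and the panel-negative values rest on 15, 14 and 9 cells. By this mean, too, Serinc3 was lower in all 9 pairs. In the cortex the 4 mice had 3160, 2908, 3064 and 3356 CPM in panel-positive cells, against 4949, 5541, 4894 and 4481 CPM in panel-negative cells. In the cerebellum mouse 2 had 4 panel-positive cells and was left out, and the other 2 mice had 3270 and 3492 CPM in panel-positive cells, against 5493 and 4861 CPM in panel-negative cells. The classes did not overlap in any of the 3 regions. Of 14206 genes, 15.1% did not overlap between the classes in the hippocampus, 6.33% in the cortex and 22.2% in the cerebellum, and 4.41%, 3.78% and 13.9% lay lower in panel-positive cells without overlap. In all 9 pairs 1.11% of the genes were lower.

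Serinc3 in panel-positive over panel-negative cells, tested by edgeR with each mouse and region as a block, fell by 0.77 ± 0.14 on the log2 scale in the hippocampus (0.588-fold, adjusted p = 0.0173) and by 0.65 ± 0.12 in the cortex (0.637-fold, adjusted p = 0.0239). In the cerebellum it differed by -0.56 ± 0.17 (adjusted p = 0.765), with 2 pairs. Of 14206 genes tested, 0.521% passed in the hippocampus, 0.359% in the cortex and 0.176% in the cerebellum, and 0.0915%, 0.0704% and 0.0563% passed as lower. The median difference of all genes was 0.37, -0.32 and -0.34 in the 3 regions. The difference of Serinc3 did not differ between regions beyond its error: it was -0.12 ± 0.19 for hippocampus minus cortex, 0.09 ± 0.21 for cerebellum minus cortex and -0.20 ± 0.22 for hippocampus minus cerebellum (edgeR, adjusted p = 1 for each).

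Both calls rest on few mice. Leaving out 1 mouse at a time, the hippocampal difference ran from -0.90 to -0.64 (edgeR, adjusted p from 0.0614 to 0.308) and the cortical one from -0.73 to -0.55 (adjusted p from 0.0495 to 0.270). The hippocampal call was lost without any 1 of the 3 mice, and the cortical call without mouse 1, 2 or 3. Both calls were lost when cells with 2 panel genes were added to the positive class, and when 1 read counted a panel gene. They were also lost when the ERCC spike-in reads of the same wells stood in for library size: the hippocampal difference was then -0.24, the cortical -0.41 and the cerebellar 0.04 (edgeR, adjusted p = 0.949, 1 and 1), with all-gene medians of 0.85, -0.08 and 0. Panel-positive sums held more gene reads per spike-in read than panel-negative ones in 6 of the 9 pairs, and Serinc3 per spike-in read was lower in 7 of the 9. A CPM value is a share of a cell's reads, so the lower level is one relative to its other transcripts. The median panel-positive cell also had more genes read than the median panel-negative cell, 3210 against 2708 in the hippocampus, 3069 against 2738 in the cortex and 3112 against 2429 in the cerebellum, and the part of this in the result was not tested.

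**Figure D3:**
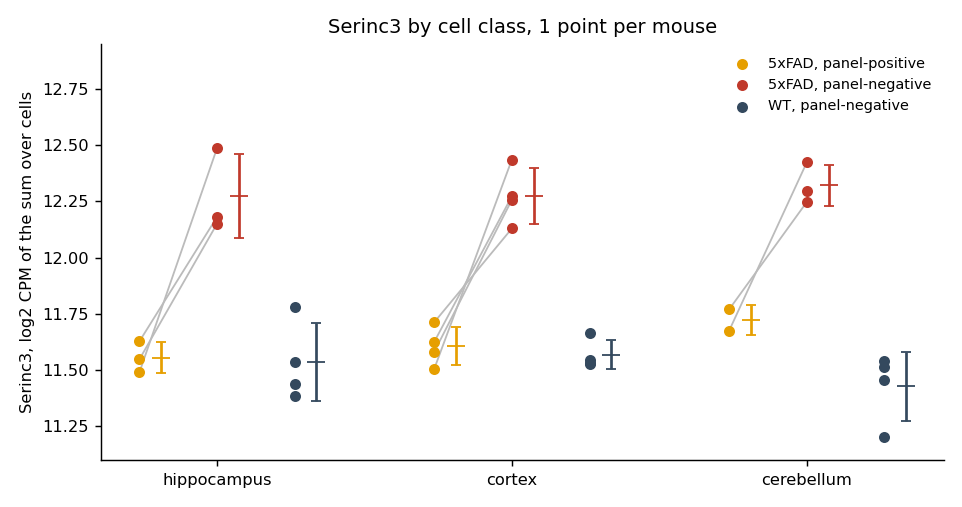
Serinc3 level (log2 CPM on 1 common scale, vertical axis) by region in panel-positive 5xFAD, panel-negative 5xFAD and panel-negative WT cells, 1 point per mouse, lines joining the classes of 1 mouse, mean ± SD beside the points. Panel-positive 5xFAD cells lay between 11.49 and 11.77, panel-negative 5xFAD cells between 12.13 and 12.49, and panel-negative WT cells between 11.20 and 11.78.

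Over single cells of 5xFAD mice, Serinc3 was described by the number of panel genes within each region. In the cortex the median was 4956 CPM in 86 cells with 0 panel genes, 4693 CPM with 1, 4159 CPM with 2, 3143 CPM with 3, 2675 CPM with 4, 2141 CPM with 5 and 2216 CPM in 5 cells with 6. In the hippocampus it was 4668 CPM in 38 cells with 0, 4442 CPM with 1, 2975 CPM with 2, 1909 CPM in 7 cells with 3, 2842 CPM with 4, 2258 CPM with 5 and 1847 CPM in 10 cells with 6. In the cerebellum it was 5225 CPM in 88 cells with 0, 4434 CPM with 1, 4765 CPM with 2, 4789 CPM in 9 cells with 3, 2821 CPM in 11 cells with 4 and 3622 CPM in 7 cells with 5. The medians at 4 and 5 panel genes thus lay below those at 0 and 1 in each region, but the steps between were not in one order. In WT mice the median was 2786 CPM in 92 cerebellar cells with 0 panel genes and 2229 CPM in 9 with 3, and the other WT regions had 1 cell each with 3 or more. Cells of 1 mouse are not independent, so these medians are given without a test.

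**Figure D4:**
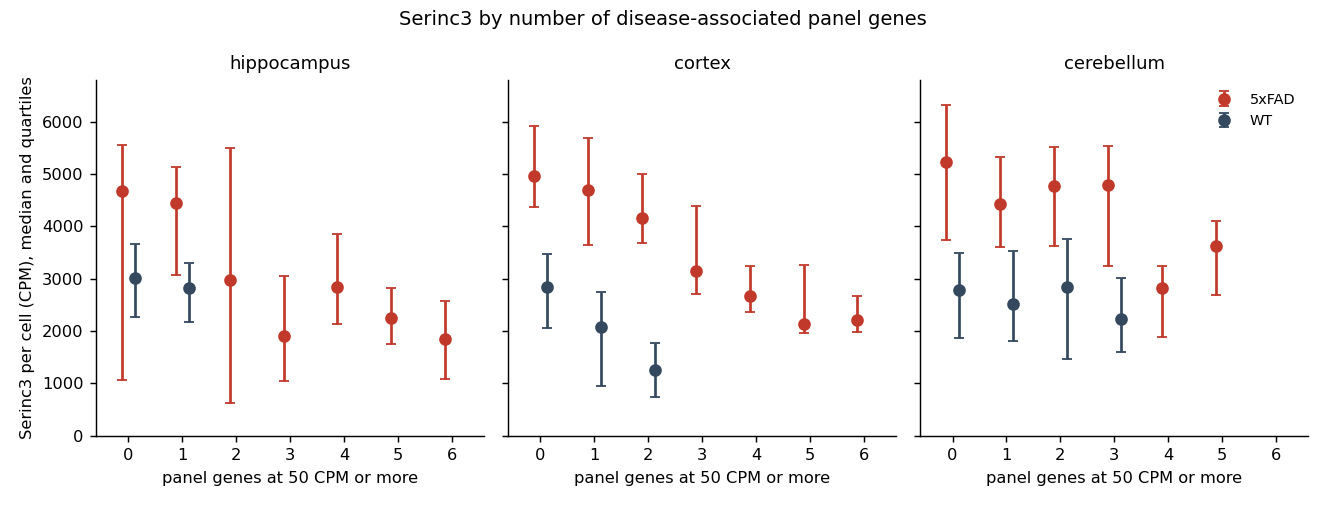
Serinc3 per cell (CPM, vertical axes) by the number of panel genes at 50 CPM or more, 1 plot per region, with 5xFAD left of WT; points are medians over cells and bars the quartiles, drawn for 5 or more cells. In 5xFAD the medians at 0 panel genes were 4668 CPM in the hippocampus, 4956 CPM in the cortex and 5225 CPM in the cerebellum, and those at 5 panel genes 2258, 2141 and 3622 CPM.

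On the common scale, Serinc3 of panel-positive 5xFAD cells averaged 11.56 ± 0.07 log2 CPM in the hippocampus (SD, n = 3), 11.61 ± 0.09 in the cortex (SD, n = 4) and 11.72 ± 0.07 in the cerebellum (SD, n = 2). Panel-negative WT cells averaged 11.54 ± 0.17, 11.57 ± 0.06 and 11.43 ± 0.15 (SD, n = 4 each). The mice of the 2 classes overlapped in the hippocampus and cortex and did not in the cerebellum. Panel-negative 5xFAD cells averaged 12.27 ± 0.19 (SD, n = 3), 12.27 ± 0.13 (SD, n = 4) and 12.32 ± 0.09 (SD, n = 3).

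Set against WT within panel-negative cells, Serinc3 was higher in 5xFAD by 0.75 ± 0.11 log2 units in the hippocampus, 0.75 ± 0.10 in the cortex and 0.86 ± 0.11 in the cerebellum. All 10 sums of 5xFAD mice lay above all 12 of WT mice, as did 0.0139% of all genes tested. In the hippocampus, which had the largest share of panel-positive cells, the difference was 0.75 in panel-negative cells and 0.40 in all cells. The part of that share in the gap was not tested. The 0.75 rests on 15, 14 and 9 cells per 5xFAD mouse, with means over cells of 4223, 3500 and 3126 CPM. The median panel-negative hippocampal cell held 4668 CPM in 5xFAD and 3021 CPM in WT. A fit with equal weight per cell was not run for these cells. On plate P210 panel-negative cells of the 5xFAD cortex lay between 12.13 and 12.44 log2 CPM and those of the WT cerebellum between 11.20 and 11.54. Scaled to spike-in reads, the panel-negative differences were 0.78, 1.16 and 1.20, beside all-gene medians of -0.06, 0.31 and 0.33. The 2 other members tested did not pass in any region (edgeR), where 0.271%, 0.0208% and 0.0347% of 14411 genes passed. Serinc5 had an unadjusted p under 0.05 in the cerebellum, where DESeq2 called it. The share of all genes under that unadjusted limit was not counted for panel-negative cells.

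**Figure D5:**
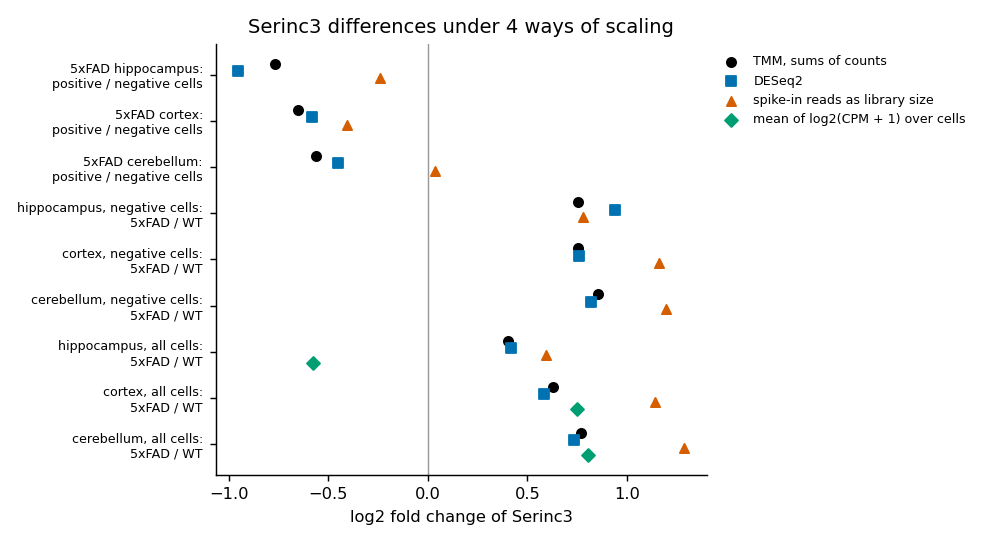
Log2 fold change of Serinc3 (horizontal axis) under up to 4 ways of scaling. It is given for panel-positive over panel-negative 5xFAD cells, and for 5xFAD over WT in panel-negative and in all cells. The mean of log2(CPM + 1) over cells was not run for the panel classes and is shown for all cells only. The 5xFAD over WT values lay above 0 except for the mean of log2(CPM + 1) over hippocampal cells, -0.58, and the panel-positive over panel-negative values lay below 0 except with spike-in scaling in the cerebellum, 0.04.

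The antisense gene 0610039K10Rik, named here because it overlaps Serinc3, was read at low levels. Its log2 CPM was 2.90 to 3.06 in 5xFAD against 2.40 to 2.70 in WT hippocampal sums, 3.26 to 3.49 in 5xFAD against 2.22 to 3.05 in WT cortical sums, and 3.11 to 3.18 in 5xFAD against 2.54 to 2.98 in WT cerebellar sums. It thus stood higher in 5xFAD without overlap in each region, as Serinc3 did. So did 7.21% of all genes tested in the hippocampus, 3.06% in the cortex and 3.93% in the cerebellum. Because of the 134 shared bases the antisense gene is not an independent measure.

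Serinc1 showed no difference between genotypes that passed the test. In the hippocampus the 3 5xFAD mice had 586, 543 and 572 CPM, and the 4 WT mice had 387, 268, 479 and 464 CPM, without overlap. In the cortex the 4 5xFAD mice had 625, 414, 329 and 398 CPM and the 4 WT mice 605, 534, 362 and 605 CPM, with overlap. In the cerebellum the 3 5xFAD mice had 482, 555 and 447 CPM and the 4 WT mice 304, 363, 409 and 422 CPM, again without overlap. Of all genes tested, 7.21% lay higher in 5xFAD without overlap in the hippocampus and 3.93% in the cerebellum. The log2 differences were 0.51 ± 0.22 in the hippocampus, -0.26 ± 0.21 in the cortex and 0.41 ± 0.22 in the cerebellum (edgeR, adjusted p = 0.349, 0.718 and 0.573). Of the 2 members tested besides Serinc3, 0 passed in each region, where 1.01%, 0.294% and 0.0461% of all genes passed. At an unadjusted p under 0.05 they numbered 1, 0 and 1, beside 2273, 2039 and 1549 of all 17358 genes. DESeq2 called Serinc5 in the cerebellum.

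Serinc1 did not pass the panel test in any region. In the hippocampus it was higher in panel-positive than in panel-negative cells in 3 of 3 mice (1.05 ± 0.39, edgeR, adjusted p = 0.55), with 712 CPM on average in panel-positive and 340 CPM in panel-negative cells. In the cortex it differed by -0.28 ± 0.34 and in the cerebellum by -0.41 ± 0.47 (adjusted p = 1 for each), and it was lower in 4 of all 9 pairs.

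Serinc1 and Serinc3 were read together in 622 of 1041 cells, Serinc3 without Serinc1 in 410, and Serinc1 without Serinc3 in 3. Serinc1 exceeded Serinc3 in 23 cells. Within groups, the median Serinc3 level was higher in cells with a Serinc1 read in 3 groups (2958 against 2250 CPM in 5xFAD hippocampus, 4563 against 4437 CPM in 5xFAD cortex and 2830 against 2590 CPM in WT cortex) and lower in the other 3.

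Serinc5, whose human counterpart is the most potent antiviral member of the family, was read in very few cells. All 1276 of its reads lay in 30 cells, and 3 of these cells held 47.6% of them. It was read in 6 of 154, 8 of 183 and 6 of 193 cells of the 5xFAD hippocampus, cortex and cerebellum, against 5 of 182, 5 of 167 and 0 of 162 cells of the WT regions. A count of 0 among 162 cells allows a share of up to 1.85% by the limit of 3 counts (exact upper bound 2.25%). The cerebellar counts were 531 reads in 5xFAD, 260 of them in 1 cell, and 0 reads in WT. Against a floor of 3 reads over the group the ratio was 101. It is not a lower bound, because reads of 1 cell are not independent. Of the 3 5xFAD mice, 1 had no read. The cerebellar difference of Serinc5 did not pass in edgeR (adjusted p = 0.549), though DESeq2 called it. All 30 cells also held Serinc3 reads, and 1 of them carried markers of another cell type.

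Serinc2 held 21 reads in 5 cells and did not pass the filter on low counts, so it was not tested. Of these, 2 reads came from 1 cell of the 5xFAD hippocampus, 10 from 2 cells of the WT hippocampus and 9 from 2 cells of the WT cortex. Serinc4, a further family gene that shares exons with Ell3, Serf2 and Hypk, held 2 reads in 1 cell.

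Genes that act around the Serinc proteins were read from 4 lists. Of 11 tested genes of serine synthesis and transport, 18 of serine-derived lipid synthesis and 17 phospholipid scramblases and flippases, none passed in any of the 3 genotype comparisons (edgeR). Their median log2 differences between 5xFAD and WT were 0.32, 0.48 and 0.23 in the hippocampus, 0.83, 0.10 and -0.49 in the cortex and 0.39, 0.03 and 0.04 in the cerebellum, beside all-gene medians of 0.10, -0.09 and -0.01. Of 13 tested retrovirus restriction factors, 1 passed as higher in the hippocampus, as did 0.76% of all genes, and none in the other regions, with medians of 0.97, 0.79 and 0.17. It was Slfn5, of the Schlafen family (edgeR, adjusted p = 0.00699), with 1555 reads in 13 of 154 cells of the 5xFAD hippocampus and 0 reads in 182 cells of the WT hippocampus. Slfn5 was also read in 14 of 162 cells of the WT cerebellum, and it was lower in WT hippocampus than in WT cerebellum (edgeR, adjusted p = 0.0191), as were 0.19% of all genes.

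The genes whose log2 CPM was most like that of Serinc3 over the 22 sums, among 3576 compared, were Cap1 (r = 0.781) and Wdr1 (0.749), both regulators of actin filaments, the lysosomal mannosidase Man2b1 (0.730), the protein kinase C substrate Plek (0.726) and prosaposin Psap (0.719). After each group's mean was removed their r with Serinc3 lay between -0.455 and 0.282. For Serinc1 they were the ubiquitin-conjugating enzyme Ube2d3 (0.717), the metallothionein Mt1 (0.693), the RNA-binding Hnrnpk (0.692), Wbp1l (0.687) and the stress-granule protein G3bp1 (0.628), with r between 0.49 and 0.71 after the group means were removed. The 22 points of each r share libraries and plates, so these values are descriptions.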

How the data were processed

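The deposited table gave the authors' raw read counts for 48587 genes and 92 ERCC spike-ins in 1152 wells of 3 plates. STAR 2.5.2b, featureCounts 1.5.1 and GRCm38 are named in the submitters' processing notes without strand settings. In each plate row, plate column 1 held the sum of itself and wells 10 to 19, and column 2 that of wells 20 to 24. The authors' counts were recovered by subtraction, which gave 0 negative values of 4673184. Cells with at least 500 genes, 10000 gene reads and at most 20% mitochondrial reads were kept (1041 of 1140), and doublets were not called. Counts were summed per mouse and region and fitted with edgeR 4.0.16 (R 4.3.3) on TMM-scaled counts of genes passing filterByExpr. Adjusted p-values are Benjamini-Hochberg values over all genes tested, called under 0.05. Panel classes were fitted in the same way, with mouse and region as a block. limma 3.58.1 and DESeq2 1.42.0 served as alternatives. Spike-in scaling, the comparison within plate 210, the differences between regions of the panel difference, the panel fit without a block and the limit of 500 CPM were added after the data were seen. Exon lengths come from GENCODE (95.5% of symbols matched) and promoters from RefSeq.

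The members and lists were chosen with earlier results of these data known. Named were the 4 members, Serinc4, up to 3 genes per list with the smallest p among those past the threshold in a genotype comparison, and the 5 genes most like each member at a mean of 5 log2 CPM or more, read in at least 20% of cells, without ribosomal, mitochondrial and unnamed genes. Replicate numbers were taken as mice within a genotype. Comparisons between regions carry no block, because no methods text states a blocked fit, and the fit with the replicate number as a block is an alternative. Same-numbered sums did not deviate together (21 pairs, r from -0.04 to 0.05). The scripts were tested on simulated data.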

Additional observations from a re-analysis of the deposited data

Results flagged for a closer look

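Of 26 sets of 4 mice checked, 4 had 1 mouse far from the other 3. The limit used flags about 1 in 20 sets of normally spread values. Sets with mice at 0 reads do not meet this, so the count cannot be set against chance. Serinc2 stood at 1.08 CPM in WT cortex mouse 2 and at 0 in the other 3, on 9 reads. Serinc5 stood at 6.32 CPM in WT hippocampus mouse 1, on 57 reads of 1 cell. In panel-negative cells, Serinc1 stood at 514 CPM in WT cerebellum mouse 3, and Serinc3 at 3244 CPM in WT cortex mouse 4.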

How the results depend on the processing

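Serinc3 stayed higher in 5xFAD than in WT under every alternative fit except the mean over cells of log2(CPM + 1) in the hippocampus (-0.58). The median hippocampal cell, which was not fitted, was not higher either, with 2832 CPM in 5xFAD and 2953 CPM in WT. The hippocampal value was 0.59 with spike-in scaling. The cortical value was 0.58 with RLE size factors and with DESeq2, 0.67 without a filter on low counts, 0.75 over cell means, 0.71 without plate columns 1 and 2, and 1.14 with spike-in scaling. The cerebellar value was 0.65 with the columns as deposited and 1.29 with spike-in scaling. Under spike-in scaling the all-gene medians were 0.29 in the hippocampus, 0.40 in the cortex and 0.47 in the cerebellum. In panel-negative cells the hippocampal value was 0.53 when 1 read counted a panel gene and 0.94 with RLE or DESeq2. Spike-in scaling there gave 1.16 in the cortex and 1.20 in the cerebellum, beside all-gene medians of 0.31 and 0.33.

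The fall in panel-positive cells missed the threshold at 2 or more panel genes (-0.50 in the cortex, -0.60 in the hippocampus), at 1 read per panel gene (-0.57 and -0.42) and with spike-in scaling (-0.41 and -0.24, and 0.038 in the cerebellum), and in the hippocampus at 50000 reads per cell (-0.54). Members called over the 3 regions, 2 in the main setting, numbered 0, 0, 0 and 1 under these 4 settings, and 1 to 2 with a mouse left out. In that last count the regions without the left-out sum kept their main call, so it could not fall below 1. Leaving out 1 mouse gave -0.90 to -0.64 in the hippocampus and -0.73 to -0.55 in the cortex; in the cerebellum it left under 2 pairs and was not run. The deposited columns, cell means and fits of single regions were not run for the classes.

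For the regional comparisons 0 members were called in the main setting. Cell means called 1, Serinc3, in 5xFAD hippocampus against cortex, against cerebellum and in both matching interactions. DESeq2 called 1, Serinc5, in the WT cerebellum comparisons with 5xFAD, in all and in panel-negative cells, and with WT cortex. Differences near 0 changed sign: WT hippocampus against cortex, Serinc3, was -0.030 with RLE and with DESeq2, -0.050 at 50000 reads per cell, -0.0092 with the stricter cell filter and -0.064 to 0.068 with a mouse left out. 5xFAD cerebellum against cortex was -0.078 over cell means and -0.27 with spike-in scaling, and with the deposited columns WT cerebellum against cortex was 0.027 and WT hippocampus against cerebellum -0.012. Serinc1 in the cortex was 0.40 over cell means and 0.23 with spike-in scaling, and in panel-positive cerebellar cells 0.19 with spike-in scaling. The cause of these shifts was not tested.

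With the replicate number as a block, Serinc3 differed between 5xFAD and WT by 0.41, 0.61 and 0.71 in hippocampus, cortex and cerebellum. There 0 other members were called, and the numbers do not pair mice across genotypes. Between regions the blocked Serinc3 differences in 5xFAD were -0.23 for hippocampus against cortex, -0.25 for hippocampus against cerebellum and 0.02 for cerebellum against cortex. In WT they were 0.01, 0.11 and -0.10. In each of these regional fits 0 members were called. Without the block the fall in panel-positive cells kept its calls (adjusted p = 0.00255 in the hippocampus and 0.00366 in the cortex, edgeR). The comparisons rest on 3 or 4 mice a group, and the values of Serinc2 and Serinc5 on 5 and 30 cells with a read.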
